A study of Homo sapiens with 9 samples.

Results

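The 2 groups compared here, A8ko and C9ko, are knockout groups of CAL27, an established line of human tongue carcinoma cells with squamous features. The cells were edited with CRISPR, in a study concerned with an enhancer active in cancers of the head and neck. The comparison covers 4 of the 9 samples, 2 labelled A8ko and 2 labelled C9ko. The remaining samples are 3 Control samples, which carry the line's name and no edit in their labels, and 2 samples of another knockout group, A2ko. All were grown in DMEM with serum and given no treatment, so the labels of the groups differ only in the knockout named. The labels do not name the sequence removed in any group. Whether each group was grown from a single clone is not given either, so a difference between groups cannot be told apart from a difference between clones.

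The files of the 2 A8ko samples held identical values at all 78894 gene identifiers, and the header of both names the same library. They were counted as 1 library, and the A2ko pair, which was identical in the same way, as 1 more. The series thus holds 7 distinct libraries, of which 2 are C9ko, 1 is A8ko, 1 is A2ko and 3 are Control. The comparison is therefore of 1 library with 2, has no replicate check on the A8ko side, and is given as a description with no p-value. Levels are in TPM, the share of a library taken by a gene after scaling for its length, and the sequencing depth behind them is unknown. Genes were kept when they reached 1 TPM in at least 2 of the 7 libraries, which left 17100 of the 78894 identifiers. Differences are in log2(TPM + 1), A8ko minus the mean of the 2 C9ko libraries, a scale that understates the change of weakly expressed genes.

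The squamous epithelial markers of the labelled cell type were present. All 10 squamous epithelial markers were kept, and KRT5, a keratin of the basal cell layer, stood at 4237 TPM in A8ko and at 5428 and 5232 TPM in C9ko. TP63, the transcription factor that defines the squamous lineage, stood at 265 TPM in A8ko against 308 and 313 TPM in C9ko. The leukocyte marker PTPRC and the endothelial markers PECAM1 and KDR stayed below the 1 TPM minimum in every library. Other members of those lists were expressed, namely CD68 and CD14 of the leukocyte list and CDH5 of the endothelial list, whose values are given below.

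Most genes differed little between the knockouts, and those that differed were more often lower in A8ko. A gene was counted when A8ko lay outside the range of the C9ko pair and its distance to the pair's mean was 1 log2 unit or more. By this rule 556 genes were counted (3.25% of those kept), 162 of them higher in A8ko (0.947%) and 394 lower (2.30%). The difference reached 2 log2 units in 20 of the higher and 44 of the lower genes. Among the 394 lower genes, A8ko was below all 3 Control libraries for 273 and both C9ko libraries were above all 3 for 294. Among the 162 higher genes, A8ko was above every Control library for 115, and both C9ko libraries were below every Control library for 69. The count of higher genes moved more with the C9ko library used. When each C9ko library had to lie 1 log2 unit away, 82 higher and 319 lower genes remained. With C9ko library 2 left out, 299 were higher and 452 lower, and with C9ko library 1 left out, 154 were higher and 481 lower.

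**Figure D1:**
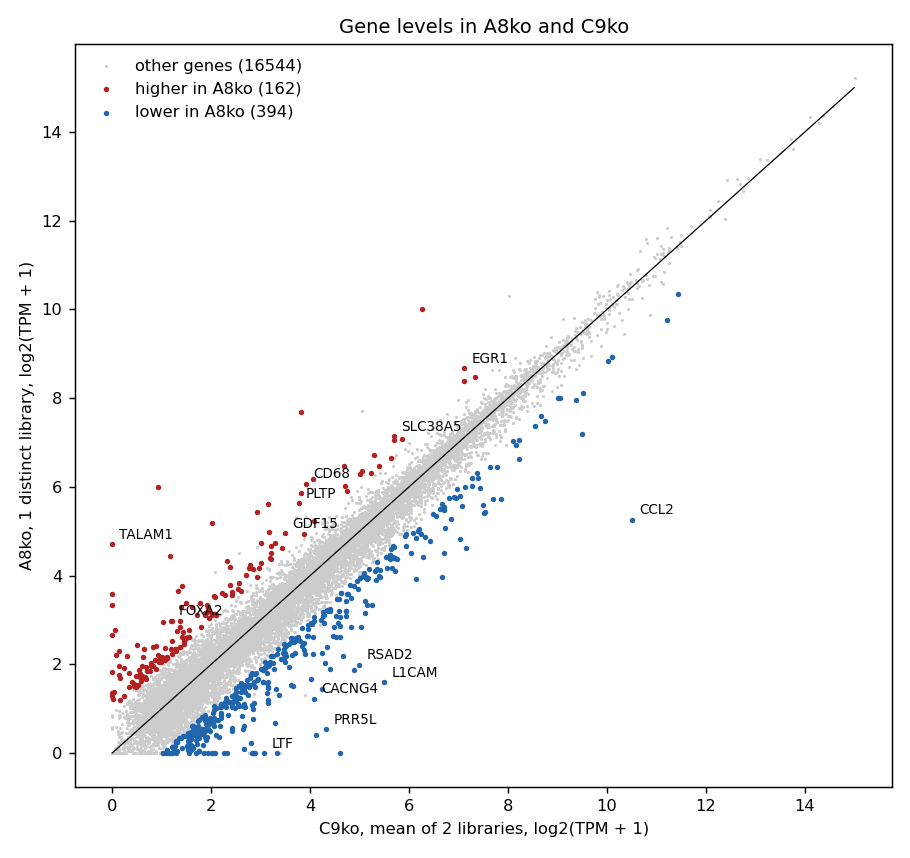
Levels of the 17100 kept genes, with the mean of the 2 C9ko libraries on the x axis and the single distinct A8ko library on the y axis, both in log2(TPM + 1). Red points are the 162 genes counted higher in A8ko and blue points the 394 counted lower; CCL2 lies farthest below the line of equal levels.

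As whole transcriptomes, A8ko and C9ko were closer to each other than either was to A2ko. The standard deviation over genes of the log2 difference was 0.489 between A8ko and C9ko library 1 and 0.434 between A8ko and C9ko library 2. The same measure was 0.349 between the 2 C9ko libraries and 0.276 to 0.285 between Control libraries. Between A2ko and A8ko it was 0.650, and between A2ko and the C9ko libraries 0.658 and 0.635. From the Control libraries A8ko was 0.519 to 0.523 away and the C9ko libraries 0.519 to 0.568. Both groups were thus nearer to Control than to A2ko as well. Thus 751 and 635 genes stood at least 1 log2 unit apart between A8ko and the C9ko libraries, against 296 between the C9ko libraries themselves.

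The gene with the largest fall in level from C9ko to A8ko was CCL2, which encodes the chemokine that draws monocytes into tissue (ENSG00000108691, chr17:34255218-34257203 on GRCh38, plus strand, protein coding). Its level was 37.4 TPM in A8ko and 1432 and 1466 TPM in C9ko, a difference of −5.24 log2 units. Control cells held 118 to 136 TPM, so A8ko lay below Control and C9ko above it. A2ko was at 298 TPM. The groups did not overlap, and the gap between the C9ko libraries was 0.034 log2 units.

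The next largest falls among named genes were smaller. L1CAM, a cell adhesion molecule first known from neurons (chrX:153861514-153886174, minus strand), stood at 2.03 TPM in A8ko and at 44.2 and 44.4 TPM in C9ko, a difference of −3.90. Control held at most 5.33 TPM. PRR5L, which encodes a protein that binds the kinase complex mTORC2, was at 0.445 TPM in A8ko and at 19.3 and 18.7 TPM in C9ko. CACNG4, a calcium channel subunit, was at 1.33 TPM against 15.7 and 16.0 TPM. In each of these genes A8ko was below all Control libraries and both C9ko libraries were above them. The long noncoding RNA ZNF503-AS1 showed the same order, at 0.332 TPM in A8ko, 7.01 to 8.48 TPM in Control, and 15.1 and 17.9 TPM in C9ko.

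Several genes were listed at 0 in A8ko, where no fold can be given. LTF, which encodes the iron-binding antimicrobial protein lactoferrin, was listed at 0 in A8ko and stood at 7.95 and 6.87 TPM in C9ko. LTF was also near absent in Control, at 0.346 TPM or less. PTPN20, a tyrosine phosphatase gene, was listed at 0 in A8ko alone, with 5.82 and 6.91 TPM in C9ko, 4.50 to 5.34 TPM in Control and 7.07 TPM in A2ko. ICAM3, an adhesion molecule of leukocytes, was listed at 0 against 9.08 and 4.29 TPM, and its C9ko libraries stood 0.93 log2 units apart. Control held 0.556 to 4.24 TPM of ICAM3. The noncoding RNA LINC00052 was listed at 0 against 5.97 and 6.32 TPM, with Control at 0.279 to 0.409 TPM. CDRT4 was listed at 0 against 4.59 and 7.86 TPM, with Control at 0.094 to 0.647 TPM. It overlaps TVP23C on the same strand, and reads of the pair could have been split between them.

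The largest rise was of an identifier without a symbol, ENSG00000296268, chosen after its values were seen, at 63.0 TPM in A8ko, 0.576 and 1.27 TPM in C9ko and 0.761 to 1.45 TPM in Control. CD68, a protein of lysosomes that is used as a macrophage marker (chr17:7579467-7582113, plus strand), was at 66.3 TPM in A8ko and at 14.1 and 14.3 TPM in C9ko, a difference of +2.15. Control held 27.8 to 32.2 TPM, between the knockouts. CD68 overlaps another annotated gene on each strand, so its reads may not all be its own. Of the 6 leukocyte markers listed, CD68 and CD14 alone were kept, and CD14, a receptor for bacterial lipopolysaccharide, went the other way, with 16.3 TPM in A8ko against 52.5 and 50.8 TPM. PLTP, which moves phospholipids between lipoproteins, was at 48.8 TPM in A8ko, 43.2 to 44.5 TPM in Control and 11.6 and 13.8 TPM in C9ko. It was thus C9ko that stood apart from Control for PLTP.

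FOXA2, a transcription factor of endoderm and its glandular derivatives, was at 6.89 TPM in A8ko against 1.47 and 1.11 TPM in C9ko. GDF15, a secreted stress-response cytokine, was at 30.0 TPM against 9.40 and 11.3 TPM, and Control held 6.98 to 8.73 TPM. For both genes A8ko stood apart and C9ko was near Control. SLC38A5, an amino acid transporter, was at 139.8 TPM against 57.7 and 45.3 TPM, with Control at 61.0 to 75.2 TPM. ASB2, a substrate adaptor of ubiquitin ligases, was at 10.4 TPM against 3.11 and 3.33 TPM, and RTL8B, a gene derived from a retrotransposon, at 9.36 TPM against 1.63 and 1.98 TPM.

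The 12 largest rises also held 3 noncoding genes and a pseudogene. SLC9A3-AS1 was at 57.5 TPM in A8ko and at 12.3 and 14.1 TPM in C9ko, and FAM222A-AS1 at 17.2 TPM against 4.20 and 4.22 TPM. Control held 50.5 to 60.2 TPM of SLC9A3-AS1 and 0.465 to 0.793 TPM of FAM222A-AS1. Both lie opposite a coding gene, and the use of strand in counting is not given in the sources used here. TALAM1, an antisense RNA of the MALAT1 locus, was at 25.1 TPM in A8ko and listed at 0 in both C9ko libraries, but it was also listed at 0 in 2 Control libraries and stood at 30.2 TPM in the remaining Control library. The pseudogene NLRP3P1 was at 5.29 TPM against 0 in both C9ko libraries, and at 2.81, 0 and 0 TPM in Control. Both genes thus varied between Control libraries too, TALAM1 by more than between the knockouts.

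**Figure D2:**
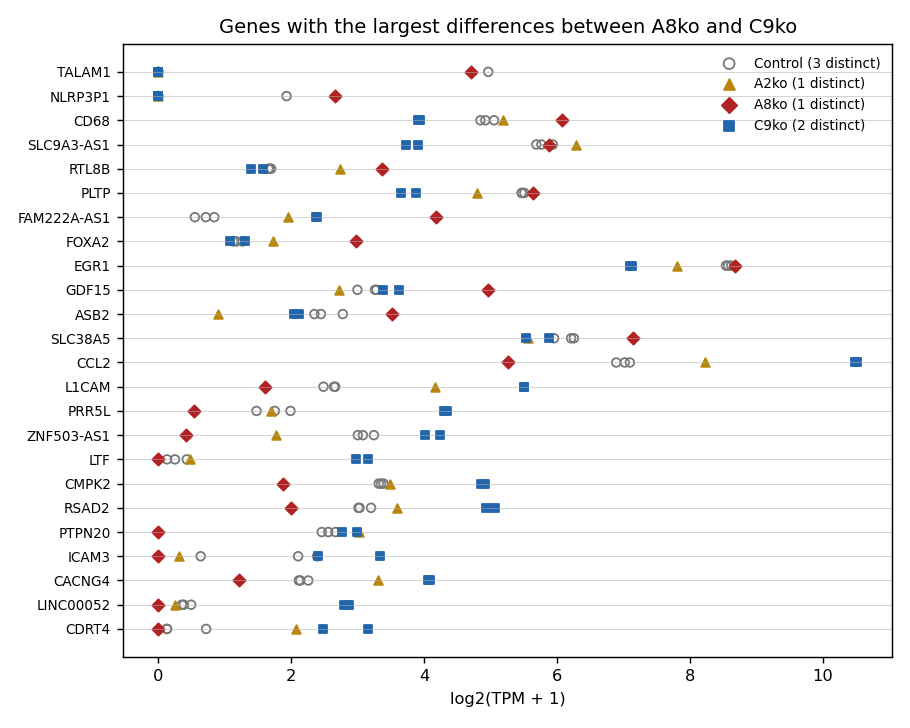
Levels in log2(TPM + 1), on the x axis, of the 12 genes with the largest rise and the 12 with the largest fall from C9ko to A8ko, 1 row per gene and 1 point per distinct library (open grey circles Control, gold triangles A2ko, red diamonds A8ko, blue squares C9ko). The 2 C9ko points lie close together in most rows, and the Control points of CCL2, L1CAM and CACNG4 lie between A8ko and C9ko.

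Among the gene lists other than the short lists of cell type markers, the interferon response had the largest median difference. Interferons are secreted proteins that cells make on sensing viral nucleic acid. They bind receptors that activate the kinases JAK1, JAK2 and TYK2 and transcription factors, STAT2 and IRF9 among them, which bind a short element, the interferon-stimulated response element, at antiviral genes. Epithelial tumour cells often keep a low level of this program in culture without added interferon. Promoters are shown for 4 members of the list counted lower in A8ko, to make that element visible. They are the 4 with the largest difference that have a single promoter in the RefSeq table (GRCh38.p14) and hold a whole match to the core GAAANNGAA on either strand in the 150 bases before the start. IFI6 is on the minus strand (chr1:27672193-27672342) and the others on the plus strand: IFI44L (chr1:78620298-78620447), IFITM1 (chr11:313890-314039) and ISG20 (chr15:88638866-88639015). Each is printed 5′ to 3′ on the gene's strand with matches in capitals.
IFI6: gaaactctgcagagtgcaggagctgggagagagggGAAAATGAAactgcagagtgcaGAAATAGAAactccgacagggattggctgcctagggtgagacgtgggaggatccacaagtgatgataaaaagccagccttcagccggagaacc
IFI44L: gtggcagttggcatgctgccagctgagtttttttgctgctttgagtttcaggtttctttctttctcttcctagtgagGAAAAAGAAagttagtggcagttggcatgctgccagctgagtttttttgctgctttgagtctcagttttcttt
IFITM1: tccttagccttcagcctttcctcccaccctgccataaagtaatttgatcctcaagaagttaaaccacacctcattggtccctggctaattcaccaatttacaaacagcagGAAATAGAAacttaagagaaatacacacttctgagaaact
ISG20: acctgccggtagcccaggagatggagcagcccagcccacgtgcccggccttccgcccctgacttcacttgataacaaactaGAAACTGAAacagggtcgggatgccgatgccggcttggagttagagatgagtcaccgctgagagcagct
The core lay 115 and 93 bases before the start in IFI6, 73 in IFI44L, 40 in IFITM1 and 69 in ISG20. IFITM1 and ISG20 lie within stretches of chromosomes 11 and 15 described below. Of the 48 list members kept, 37 had a promoter in the table, and 24 of those (64.9%) held the core on either strand within 250 bases before the start. The share was 8.41% over all 27305 promoters. It was 65.0% in members counted lower in A8ko and 64.7% in the members not counted, so the element did not separate the members by their difference. The gamma-activated site TTCNNNGAA, an element of interferon gamma responses, was in 35.1% of the 37 promoters and in 8.09% of all.

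Of the 48 interferon response genes kept, 24 (50.0%) were counted lower in A8ko and none higher, beside 2.30% and 0.947% of all genes. All 48 were lower in A8ko than in either C9ko library. The median difference was −0.99 log2 units, against −0.025 over all genes, and the 2 C9ko libraries differed by a median of −0.05 over the list. Relative to the Control mean, the list's median was −0.53 in A8ko, +0.41 and +0.39 in C9ko and +0.26 in A2ko. For 31 of the 48 genes A8ko was below every Control library and both C9ko libraries were above every Control library. Without the 7 members inside chromosome stretches described below, the median was −0.94.

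A neighbouring pair of nucleotide enzymes led the list. RSAD2 encodes viperin, which makes a chain-terminating nucleotide, and was at 2.97 TPM in A8ko, 7.07 to 8.20 TPM in Control and 29.4 and 32.4 TPM in C9ko. CMPK2, a nucleotide kinase that neighbours it (chr2:6840570-6866635, minus strand; RSAD2 chr2:6865806-6898239, plus strand), was at 2.66 TPM against 29.2 and 27.9 TPM, with Control at 8.96 to 9.47 TPM. The differences were −3.00 and −3.01, and for both genes Control lay between the knockouts. The ends of the 2 genes overlap on opposite strands. XAF1, an interferon-induced gene linked to cell death, was at 2.72 TPM in A8ko against 27.6 and 14.5 TPM in C9ko, and its C9ko libraries stood 0.88 log2 units apart.

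The mitochondrial and membrane proteins of the list were lower too. IFI27 was at 145.6 TPM in A8ko and 754 and 692 TPM in C9ko, with Control at 458 to 543 TPM. IFI6 was at 52.1 TPM against 225 and 235 TPM. The IFITM proteins block entry of enveloped viruses, and IFITM3, the most abundant member of the list, was at 1306 TPM against 2741 and 2836 TPM. IFITM1 was at 248 TPM against 708 and 629 TPM, while IFITM2 was at 145.2 TPM against 210.2 and 219 TPM and was not counted. The IFITM genes are close copies of each other, so their reads may have been divided unevenly.

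Among the antiviral GTPases, MX1 was at 32.5 TPM in A8ko, 78.7 to 90.04 TPM in Control and 104 and 106 TPM in C9ko, and MX2 at 8.16 TPM against 22.02 and 23.7 TPM. The viral RNA sensor RIGI was at 29.8 TPM against 75.8 and 73.8 TPM, with Control at 23.8 to 26.9 TPM, so here C9ko was the group away from Control. The growth-restricting pair SAMD9 and SAMD9L showed the reverse. SAMD9 was at 16.3 TPM in A8ko, 38.1 and 39.1 TPM in C9ko and 42.5 to 45.4 TPM in Control. SAMD9L was at 3.66 TPM in A8ko, 13.9 and 14.1 TPM in C9ko and 14.2 to 15.9 TPM in Control. For that pair A8ko stood farther below Control than C9ko did.

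Genes of the IFIT proteins, which bind foreign RNA, were lower in A8ko, IFIT5 by less than the others. IFIT1 was at 14.1 TPM against 33.2 and 35.7 TPM, IFIT2 at 32.3 TPM against 71.3 and 74.2 TPM, and IFIT3 at 79.05 TPM against 164 and 166 TPM. IFIT5 was at 16.9 TPM against 20.9 and 23.8 TPM and was not counted. The ubiquitin-like modifier ISG15 was at 130.4 TPM against 268 and 277 TPM. The OAS enzymes, which activate an RNA-degrading nuclease, had differences of −1.02 for OAS1, −0.91 for OAS2 and −0.70 for OAS3.

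The transcription factors of the pathway differed less evenly. IRF9 was at 4.003 TPM in A8ko and 13.4 and 13.8 TPM in C9ko, but its Control libraries ranged from 6.25 to 13.4 TPM. STAT2 was at 47.2 TPM against 49.5 and 59.0 TPM, a difference smaller than the gap between the C9ko libraries. The chemokines CXCL10 and CXCL11 were among the least different members. CXCL11 stood at 43.4 TPM in A8ko and 51.6 and 55.7 TPM in C9ko, with Control at 6.27 to 8.21 TPM, so for this gene both knockouts were on the same side of Control.

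**Figure D3:**
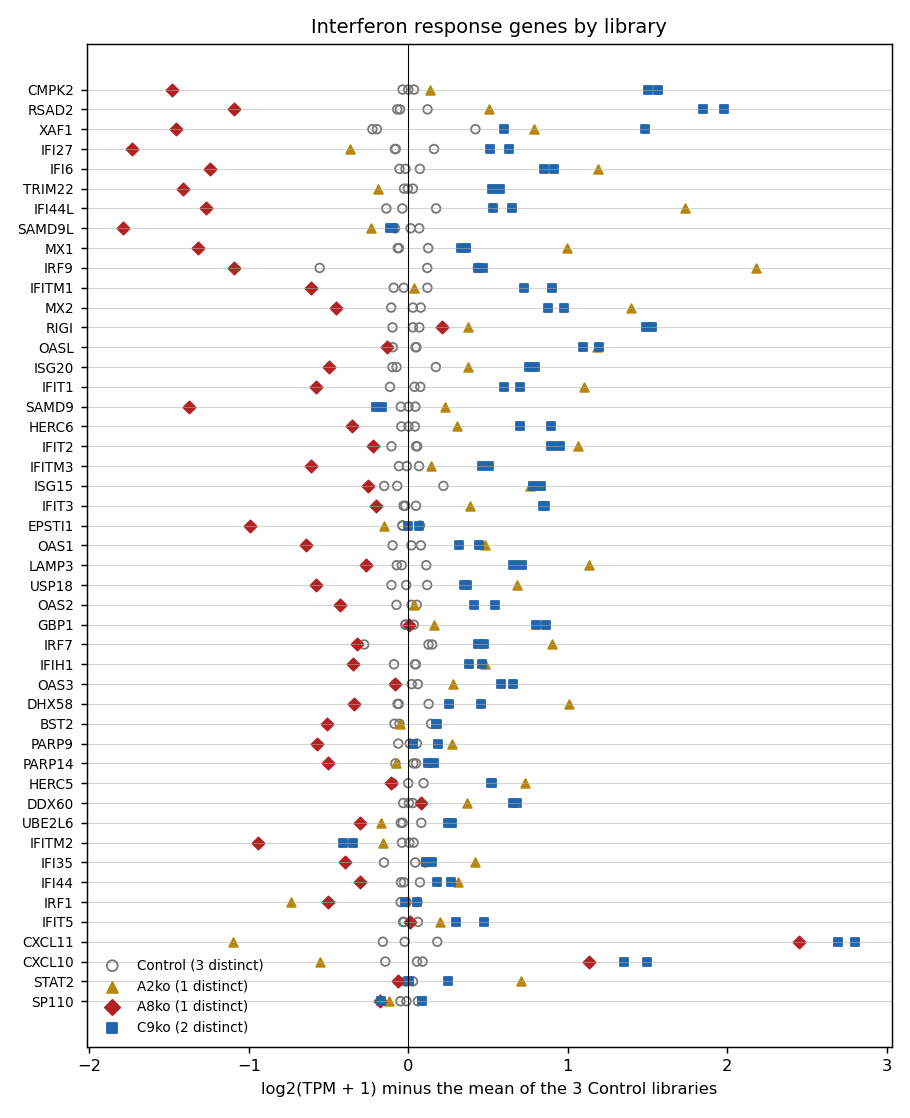
Interferon response genes, 1 row each, ordered by their difference between A8ko and C9ko, with log2(TPM + 1) minus the mean of the 3 Control libraries on the x axis. In every row the red A8ko diamond lies left of both blue C9ko squares; in 31 rows the open Control circles lie between them.

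Upstream of these genes, 2 of the 18 kept genes of interferon sensing and signalling (11.1%) were counted lower in A8ko and none higher, beside 2.30% and 0.947% of all genes. The list's median was −0.12. JAK2, a kinase of the interferon receptors, was at 1.80 TPM in A8ko, 1.90 to 2.09 TPM in Control and 5.40 and 5.15 TPM in C9ko, and it lies in a stretch of chromosome 9 described below. IFNGR1, the ligand-binding receptor of interferon gamma, was at 72.5 TPM against 149 and 158 TPM, with Control at 89.8 to 97.2 TPM. The receptor chain IFNAR1 was at 26.7 TPM against 41.1 and 35.03 TPM and the kinase JAK1 at 38.5 TPM against 42.5 and 43.7 TPM. The interferon genes IFNB1, IFNL1, IFNL2 and IFNL3 stayed below the 1 TPM minimum in every library.

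Antigen presentation genes were also lower in A8ko than in C9ko, by less, but by the list medians both knockouts lay above Control. Relative to the Control mean, the HLA class I median was +0.12 in A8ko and +0.33 and +0.34 in C9ko. The HLA class II median was +0.79 in A8ko and +1.09 and +1.20 in C9ko. Of 17 kept genes of HLA class I and peptide loading, HLA-B alone was counted (lower, median of the list −0.28). That is 5.88%, beside 2.30% of all genes counted lower. HLA-B was at 132 TPM in A8ko and 387 and 228 TPM in C9ko, and the wide gap between the C9ko libraries and its near-identical relatives make its value uncertain. Control held 75.5 to 97.4 TPM of HLA-B. B2M, the shared light chain of class I molecules, was at 943 TPM against 1821 and 1918 TPM, with Control at 1172 to 1322 TPM. None of 12 class II genes was counted (median −0.29), and their invariant chain CD74 was at 477 TPM against 724 and 743 TPM.

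In contrast to the interferon genes, the NF-kB targets and cytokines split. NF-kB is the transcription factor that drives inflammatory cytokines in epithelium. Of 38 kept genes, 5 (13.2%) were counted lower in A8ko and 1 (2.63%) higher, with a median of −0.15, beside 2.30% and 0.947% of all genes. Besides CCL2, the lower genes were the complement factors CFB and C3, the iron-binding protein LCN2 and the chemokine CCL5. CFB was at 42.5 TPM against 181 and 190.0 TPM, LCN2 at 46.3 TPM against 132 and 136 TPM, and C3 at 179 TPM against 444 and 417 TPM.

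Several classical NF-kB cytokines were close in the knockouts and far above Control. IL6 was at 130.5 TPM in A8ko and 109.7 and 121.5 TPM in C9ko, while Control held 12.1 to 14.1 TPM. LIF was at 44.6 TPM against 41.8 and 45.1 TPM, and the inhibitor NFKBIA at 234 TPM against 209 and 206 TPM, with Control at 107 to 130.5 TPM. IL1A, an alarmin of keratinocytes, was the gene counted higher, at 135 TPM against 53.9 and 60.0 TPM, with Control at 31.4 to 36.7 TPM. CSF2, which encodes GM-CSF, was at 35.3 TPM against 17.6 and 18.3 TPM, just under the rule at +0.94, and Control held 0.679 TPM or less.

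Protease inhibitors and secreted proteases were lower in A8ko. Kallikreins are serine proteases that shed the outer cells of squamous epithelium, and serpins restrain such enzymes. Of 27 kept genes, 12 (44.4%) were counted lower and none higher, beside 2.30% and 0.947% of all genes. The median was −0.69, and none of the list lies in the stretches described below. KLK7 was at 5.15 TPM in A8ko, 14.1 to 18.6 TPM in Control and 20.8 and 23.2 TPM in C9ko. KLK5, which activates other kallikreins, was at 275 TPM against 746 and 711 TPM, and KLK10 at 17.05 TPM against 49.3 and 49.97 TPM. The inhibitor SERPINA3 was at 0.0018 TPM in A8ko, 3.49 and 4.13 TPM in C9ko and 7.24 to 9.04 TPM in Control.

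Elafin and the secretory leukocyte protease inhibitor, products of PI3 and SLPI, protect epithelium from neutrophil elastase. PI3 was at 6.32 TPM in A8ko, 25.9 and 20.99 TPM in C9ko and 90.2 to 99.7 TPM in Control, so both knockouts lay below Control and A8ko the lower. SLPI was at 85.9 TPM against 209 and 228 TPM. Among the members not counted were SERPINB5, at 43.9 TPM against 50.9 and 50.3 TPM, and CSTB, at 587 TPM against 626 and 614 TPM.

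Genes of squamous differentiation, the program by which keratinocytes form a cornified surface, gave a mixed picture. Of 37 kept genes, 11 (29.7%) were counted lower in A8ko and none higher, beside 2.30% and 0.947% of all genes. The median was −0.42, and −0.27 without the 7 members in chromosome stretches. Against the Control mean the list's median was −1.26 in A8ko, −0.81 and −0.80 in C9ko and −0.96 in A2ko. The calcium-binding S100A8 and S100A9, which form calprotectin, were at 458 and 871 TPM in A8ko. In C9ko S100A8 was at 1025 and 1051 TPM and S100A9 at 2406 and 2349 TPM. Control held 210.3 to 256 TPM of S100A8 and 472 to 515 TPM of S100A9, so both knockouts were above Control and C9ko the higher. S100A7 was at 41.3 TPM against 139.6 and 234 TPM.

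The keratins of wounded epithelium were not above Control in either knockout. KRT6A was at 257 TPM in A8ko, 506 and 543 TPM in C9ko and 1360.0 to 1426 TPM in Control. KRT17 was at 489 TPM against 1139 and 1049 TPM, with Control at 1031 to 1243 TPM. The envelope protein SPRR1B was at 19.8 TPM against 53.9 and 51.7 TPM, with Control at 215 to 228 TPM. KRT6A, KRT6B and KRT6C, like SERPINB3 and SERPINB4, are near-identical copies, and reads may have been shared among them. KRT13 and KRT10, by comparison, were close in the knockouts, at 2.23 TPM against 1.68 and 2.50 TPM and at 14.4 TPM against 14.05 and 13.9 TPM.

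Genes of the growth factor response included 2 counted higher in A8ko. The AP-1 and EGR transcription factors are induced within minutes by growth factor signalling. EGR1 (chr5:138465490-138469315, plus strand) was at 408 TPM in A8ko, 371 to 392 TPM in Control and 138 and 136 TPM in C9ko, a difference of +1.57. FOS was at 59.1 TPM in A8ko, 25.6 and 26.3 TPM in C9ko and 141 to 149 TPM in Control. Both genes were thus lowest in C9ko. Of 29 kept genes of the EGFR family and AP-1, these 2 (6.90%, beside 0.947% of all genes) were counted higher and AREG, an EGFR ligand, lower, at 23.98 TPM against 50.4 and 51.6 TPM (median of the list +0.12). IER3, at 246 TPM against 129 and 123 TPM, and DUSP6, at 35.8 TPM against 17.2 and 21.8 TPM, fell short of the rule, and JUN was at 64.9 TPM against 56.3 and 55.7 TPM.

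Contractile genes were among those lower in A8ko. Of 35 kept genes of partial epithelial-mesenchymal transition and matrix, 5 (14.3%) were counted lower and none higher (median −0.23), beside 2.30% and 0.947% of all genes, and 9 members lay above both C9ko libraries. MYL9, a myosin light chain, was at 6.17 TPM in A8ko, 11.3 to 13.8 TPM in Control and 32.4 and 31.0 TPM in C9ko. TPM1, which encodes a tropomyosin, was at 52.1 TPM against 199 and 212 TPM, with Control at 58.0 to 64.8 TPM. TAGLN, an actin-bundling protein, was at 10.3 TPM against 23.7 and 31.9 TPM, with Control below both knockouts at 6.93 to 7.11 TPM. Against the Control mean the list's median was +0.40 in A8ko and +0.82 and +0.75 in C9ko. VIM, the mesenchymal intermediate filament, was left out by the filter, since it reached 1 TPM in A8ko alone, with 3.12 TPM there and 0.388 and 0.539 TPM in C9ko.

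That filter treats the groups unequally. Of the identifiers, 143 reached 1 TPM in A8ko alone and were left out, while 110 reached it in the 2 C9ko libraries alone and were kept. Without the filter, 176 genes were counted higher and 400 lower.

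Other programs differed by few genes. Among TGF-beta, Notch and YAP targets, the ligand TGFB2 was at 14.5 TPM in A8ko against 33.1 and 35.3 TPM and the receptor TGFBR2 at 17.1 TPM against 44.5 and 47.03 TPM, while the Notch target HEY1 was at 2.43 TPM against 0.454 and 0.486 TPM. TGFBR2 lies in the chromosome 3 stretch described below. NRF2 targets gave 1 of 25 kept genes (4%) in each direction, beside 0.947% of all genes higher and 2.30% lower. They were GPX2, at 10.9 TPM against 4.37 and 3.43 TPM, and AKR1B10, at 3.17 TPM against 9.29 and 11.2 TPM. TNFSF9, the ligand of the T cell receptor 4-1BB, was at 29.6 TPM against 14.6 and 13.0 TPM. The simple-epithelial keratin KRT7 was at 14.8 TPM against 35.01 and 30.2 TPM, and CDH5, an endothelial cadherin also found in some carcinomas, at 8.15 TPM against 21.9 and 29.9 TPM.

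In the respiratory chain list, C15orf48, a small protein that replaces a subunit of cytochrome oxidase in inflamed cells and whose gene lies in a chromosome 15 stretch described below, was at 23.5 TPM in A8ko against 137 and 144 TPM, with Control at 2.26 to 2.77 TPM. ATP5F1A was counted higher, at 334 TPM against 128 and 146 TPM, but its Control libraries ranged from 143 to 355 TPM. No member was counted among 27 genes of replication and G1/S (median +0.13), 30 of mitosis and G2/M (+0.02), 20 of basal keratinocytes (−0.15), 26 of cholesterol and fatty acid synthesis (+0.10) or 29 of glycolysis and hypoxia (+0.05). Over all genes 3.25% were counted in either direction, and at that share few or no members would be counted in lists of this size.

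**Figure D4:**
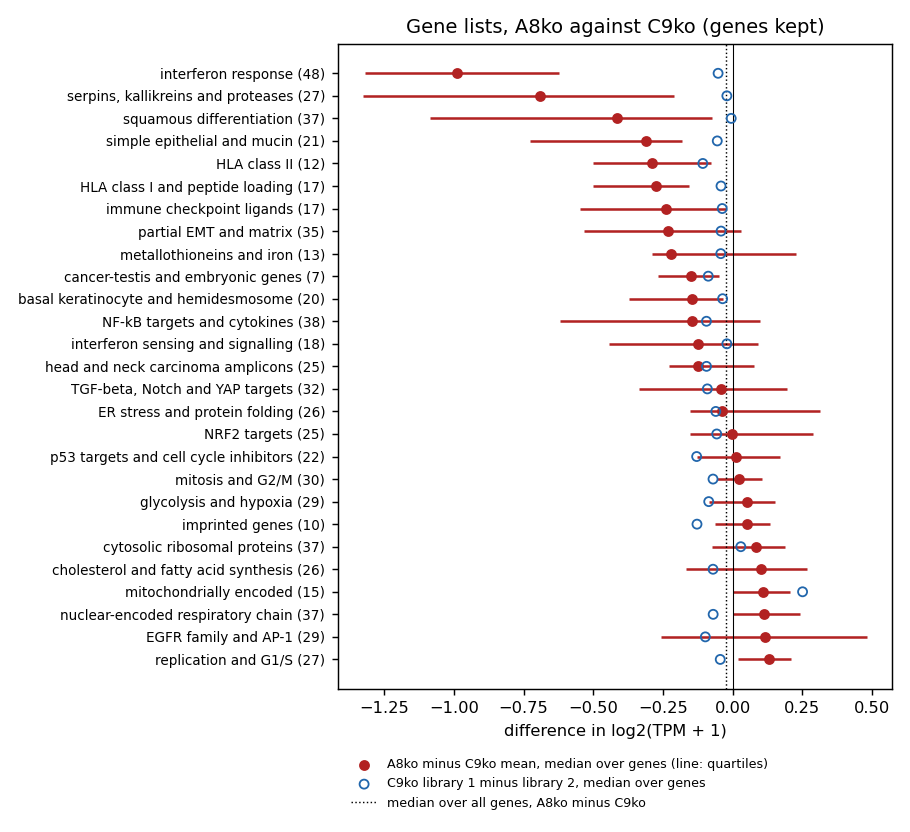
Median difference of each gene list other than the cell type marker lists, A8ko minus the C9ko mean in log2(TPM + 1) on the x axis (red points, with lines for the range between the quartiles), beside the median of C9ko library 1 minus library 2 (open blue circles) and the median over all genes (dotted line). Of the lists drawn, the interferon response lies farthest to the left at −0.99, followed by serpins, kallikreins and proteases at −0.69.

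A few genes were listed in 1 knockout only. At 2 TPM or more in both C9ko libraries and under 0.1 TPM in A8ko stood 16 genes, 11 of them with a symbol. In addition to those named above they included DAPK1, a death-associated kinase, at 0.070 TPM in A8ko against 5.31 and 5.36 TPM, and PTN, the growth factor pleiotrophin. PTN was listed at 0 in A8ko and at 2.68 and 2.56 TPM in C9ko, both below the 10.2 to 12.2 TPM of Control. In the opposite direction stood 7 genes, of which TALAM1 and NLRP3P1 had a symbol.

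Differences were also shared by neighbouring genes along chromosomes. A stretch was a run of windows of 25 neighbouring kept genes in which at least 21 lay on the same side of both C9ko libraries, after subtracting the median over all genes. This gave 13 stretches, 10 lower and 3 higher in A8ko, while the same scan of C9ko library 1 against library 2 gave 4, none with a median past 0.08 log2 units. The stretches held 1376 genes, of which 90 (6.54%) were counted lower and 4 higher. Outside them 278 of 14290 genes (1.95%) were counted lower and 129 higher. The stretches were chosen by these same values, so a larger share counted lower inside the lower stretches follows from that choice. Positions are from GENCODE release 29 on GRCh38.

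The longest stretch covered much of the short arm of chromosome 3 (chr3:3126916-66038834), with 345 of its 369 genes (93.5%) lower in A8ko and a median of −0.64. Relative to Control the median was +0.12 in A8ko and +0.74 and +0.77 in C9ko, so it was C9ko that stood apart. RPSA and RPL15, of the ribosome, were at 1531 and 699 TPM in A8ko. In C9ko RPSA was at 2203 and 2307 TPM and RPL15 at 1175 and 1449 TPM. LTF, TGFBR2 and RPL32 lie in this stretch too.

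In 3 more stretches C9ko stood apart in the same way. On chromosome 9 (chr9:14521-62376836, 171 genes) the median was −0.48, with C9ko at +0.41 and +0.38 relative to Control, and DNAJA1, a co-chaperone, was at 225 TPM in A8ko against 355 and 381 TPM. On chromosome 12 (chr12:93677375-108857590, 79 genes) it was −0.36, and HSP90B1, a chaperone of the endoplasmic reticulum, was at 413 TPM against 571 and 641 TPM. On chromosome 20 (chr20:270863-25452628, 130 genes) it was −0.38, and PCNA, the sliding clamp of DNA replication, was at 304 TPM against 484 and 534 TPM.

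In 5 stretches it was A8ko that stood apart from Control. Chromosome 15 held 4 of them, with 149, 30, 92 and 151 genes from chr15:31326855 to chr15:101976543, and A8ko lay at −0.36 to −0.40 relative to Control in each. Genes there included B2M and TPM1, and also ANXA2, a membrane-binding protein, at 1219 TPM in A8ko against 1677 and 1676 TPM. For B2M and TPM1 by themselves C9ko lay farther from Control, at +0.61 and +1.74 log2 units, than A8ko, at −0.38 and −0.22. The fifth was at the end of the short arm of chromosome 11 (chr11:127204-6610874, 95 genes; −0.36 relative to Control) and held IFITM3 and CTSD, the lysosomal protease cathepsin D, at 625 TPM against 865 and 766 TPM.

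The last lower stretch was the keratin cluster of chromosome 12 (chr12:52164115-53180909, 25 genes, median −0.45). KRT8 was at 314 TPM in A8ko against 559 and 512 TPM, and KRT18 at 477 TPM against 570 and 553 TPM, with both knockouts above the Control means of 235 and 229.8 TPM. KRT5, by contrast, was below Control in both knockouts. It was at 4237 TPM in A8ko, 5428 and 5232 TPM in C9ko and 8716 to 9147 TPM in Control. Over the whole stretch the median relative to Control was −0.11 in A8ko and −0.09 and −0.12 in C9ko. The 3 higher stretches were short and shallow, with 25 genes on chromosome 2 (+0.28), 31 on chromosome 11 (+0.20) and 29 on X (+0.15), and held no counted gene. The keratin stretch and the higher stretches of chromosomes 2 and 11 were not found again when only protein-coding genes with a symbol were scanned.

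**Figure D5:**
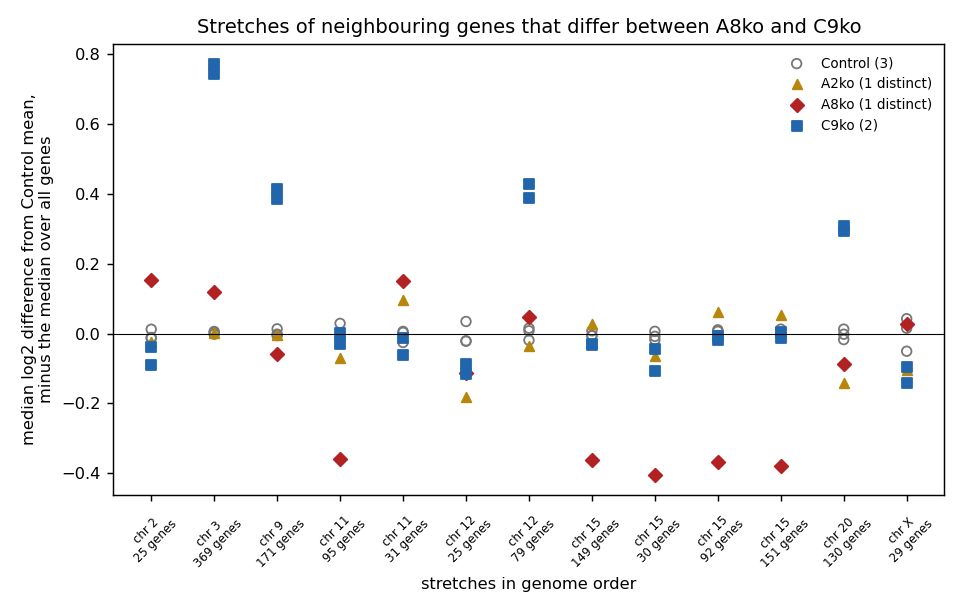
The 13 stretches in genome order on the x axis, with the median log2 difference of their genes from the Control mean, less the median over all genes, on the y axis, 1 point per distinct library. The blue C9ko squares stand above the rest on chromosomes 3, 9, 12 (79 genes) and 20, and the red A8ko diamond stands below the rest on chromosome 15 and in the 95-gene stretch of chromosome 11.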

How the data were processed

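The deposited values are TPM per Ensembl gene identifier, 1 file per sample, computed by the authors from polyA RNA; per the labels' protocols, 2 ug of TRIzol-extracted RNA entered a dUTP library protocol, which marks strand. The build is hg38 per the submitters' processing notes. The aligner, counter and annotation release are not given in the sources used here, nor is the use of strand in counting. Depth is unknown, which leaves counting error unmeasured. Because TPM values are shares, abundant genes shift the rest.

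Files were read with Python 3.11.15 and pandas 2.3.3. Symbols came from a supplied table (14374 of the 17100 kept genes), positions from GENCODE release 29 (15666 of 17100) and promoters from RefSeq. A pseudocount of 1 TPM was used. The comparison, the 34 gene lists and the alternatives were chosen with earlier results of these data known. Named are the 12 largest rises and 12 largest falls among counted genes with a symbol, at least 5 TPM in the higher group and a difference at least 3 times the C9ko gap. Also named are the 3 largest counted members of each list, up to 5 genes per direction listed in 1 knockout only and the 3 most abundant genes of each stretch; other genes were chosen after their values were seen. Whether the 2 C9ko samples are separate cultures is not given in the labels. One member of the interferon response list is counted with the list but is not reported here by itself.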

Additional observations from a re-analysis of the deposited data

Results flagged for a closer look

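Among the gene lists and the genes named by rule, 3 lists and 26 genes are given here because A8ko lay on one side of all 3 Control libraries and both C9ko libraries on the other. The difference between the knockouts was not tested in any of them, since A8ko has 1 distinct library. All values here are A8ko minus the C9ko mean in log2(TPM + 1). The lists are given by their medians: −0.99 for the interferon response, −0.31 for simple epithelial and mucin genes and −0.22 for metallothioneins and iron. In the last of these C9ko library 1 stood at +0.36 and library 2 at +0.18 relative to Control, and A8ko at −0.07.

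Higher in A8ko than Control and lower in C9ko were CD68 (+2.15), RTL8B (+1.89), PLTP (+1.87), EGR1 (+1.57), ASB2 (+1.43), SLC38A5 (+1.43) and HEY1 (+1.22). For PLTP and EGR1 the A8ko level was close to Control, at 48.8 TPM against at most 44.5 TPM and at 408 TPM against at most 392 TPM.

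Lower in A8ko and higher in C9ko by 2 log2 units or more were CCL2 (−5.24), L1CAM (−3.90), PRR5L (−3.79), ZNF503-AS1 (−3.71), LTF (−3.07), CMPK2 (−3.01), RSAD2 (−3.00), PTPN20 (−2.88), ICAM3 (−2.87), CACNG4 (−2.85), LINC00052 (−2.84), CDRT4 (−2.82), XAF1 (−2.50) and MYL9 (−2.19). LTF, PTPN20, ICAM3, LINC00052 and CDRT4 are listed at 0 in A8ko, so their values depend on the pseudocount. Every Control library was also under 1 TPM for LTF, LINC00052 and CDRT4, so for these it was C9ko that stood apart. ICAM3 reached 4.24 TPM in Control, close to the 4.29 TPM of C9ko library 2. With smaller differences followed TPM1 (−1.96), KLK7 (−1.90), SERPINB4 (−1.69), JAK2 (−1.16) and IFNGR1 (−1.07). JAK2 in A8ko was close to Control, at 1.80 TPM against 1.90 TPM in the lowest Control library.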

How the results depend on the processing

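The 556 counted genes (162 higher, 394 lower) became 1331 (449 higher, 882 lower) with a pseudocount of 0.1 TPM and 174 (41 higher, 133 lower) with 5 TPM. With a mean of at least 5 TPM required in the higher group they were 348 (92 higher, 256 lower). With 1 log2 unit required from each C9ko library, 401 were counted, 82 of them higher. Leaving out 1 replicate gave 556 to 751 in all, 154 to 299 higher and 394 to 481 lower; the lowest totals are those without an A8ko replicate, whose files are identical. Scaling by the median of ratios gave 173 higher and 362 lower, and leaving out mitochondrially encoded genes 197 and 431. Of 2 alternatives added after seeing the data, genes outside the chromosome stretches gave 158 and 304, and genes whose Control libraries span at most 1 log2 unit 126 and 375. The share of higher among counted genes ran from 20.4% with 1 log2 unit from each C9ko library to 39.8% without C9ko replicate 2, beside 29.1% as reported. None of 53 named genes changed direction in the alternatives run, and 42 were counted in every one. All 53 were counted genes, with A8ko beyond both C9ko libraries. Leaving out a library or changing the pseudocount could therefore not reverse them, so the lack of reversals there is not a check. HLA-B and KRT7 were not counted without C9ko replicate 1, nor TNFSF9 without C9ko replicate 2. A pseudocount of 5 TPM lost 10, among them FOXA2, ASB2, GPX2, HEY1 and JAK2. The interferon response median ran from −1.03 to −0.77, the latter at a pseudocount of 5 TPM, and the squamous differentiation median from −0.93 among better expressed genes to −0.18 at that pseudocount. The scan of protein-coding genes gave 14 stretches in place of 13; it lacked the keratin stretch and the higher ones on chromosomes 2 and 11 (31 genes), and added others on chromosomes 5, 11 and 14. No paired analysis was possible because A8ko holds 1 distinct library. Depth is not recorded in TPM, so what it limits could not be measured.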

Other observations

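Replication-dependent histone genes, a family chosen after its values were seen, included many members lower in A8ko. These genes encode the histones that package newly copied DNA, and most of their transcripts lack a polyA tail, while the libraries are of polyA RNA. Of 69 genes, 42 were kept, and 15 of those were counted lower and none higher, beside 2.30% and 0.947% of all genes. The median was −0.80 log2 units, and 4 of the 42 lay above both C9ko libraries. Their summed level was 151 TPM in A8ko, 504 and 502 TPM in C9ko, 225 to 264 TPM in Control and 295 TPM in A2ko. H1-2, a linker histone, was at 14.6 TPM in A8ko, 23.01 to 25.1 TPM in Control and 105.3 and 97.2 TPM in C9ko. H2AC6 was at 14.2 TPM in A8ko, 27.9 to 34.1 TPM in Control and 66.4 and 73.04 TPM in C9ko. Genes of replication and G1/S, by contrast, had a median of +0.13 and no counted member.

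The 22 mitochondrially encoded tRNAs, chosen in the same way, had a median of +0.55, and 3 were counted higher in A8ko, beside 0.947% of all genes. Their summed level was 14440 TPM in A8ko, 10890.3 and 9818 TPM in C9ko, 18822 to 19428 TPM in Control and 17073 TPM in A2ko. MT-TV was at 133 TPM in A8ko, 50.6 and 51.2 TPM in C9ko and 135 to 145 TPM in Control. The libraries are of polyA RNA, and whether the values of these genes measure mature tRNAs was not tested.

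Some genes differed between the C9ko libraries more than between the knockouts. BEST1 was at 9.34 TPM in C9ko library 1, 568 TPM in library 2 and 1038 TPM in A8ko, with Control at 519 to 621 TPM. FTH1, the ferritin heavy chain, was at 8969 TPM in C9ko library 1, 3419 TPM in library 2 and 7739 TPM in A8ko. Both were chosen after their values were seen.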
